A study of Homo sapiens with 6 samples.

Results

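The 38 genes described here encode proteins best known from neurons and neuroendocrine cells. They comprise microtubule and growth cone proteins, neuronal RNA-binding proteins, synaptic vesicle proteins, adhesion molecules, granins, 2 regulators of excitability, and the repressor REST with RCOR1 and INSM1. They were taken by symbol from the 58721 genes of the count table, through GENCODE release 29. Cytoplasmic RNA, without poly(A) selection, was sequenced from 3 libraries of HEK293T cells in which ALKBH5 and FTO had both been targeted with CRISPR/Cas9 (double knockout), and from 3 libraries of HEK293T cells with a wild type genotype. Both groups carried the background of HEK293T, a human embryonic kidney line that expresses the SV40 large T antigen, and were lysed in Triton buffer with cycloheximide. The wild type columns bear the name HEK293G6, which the labels do not explain. The sources used here do not say whether they are the parental cells of the double knockout or how many knockout clones were used, so a difference between lines and the effect of the knockout cannot be told apart.

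ALKBH5 and FTO are demethylases of N6-methyladenosine (m6A) in RNA, and the comparison asks how the cytoplasmic transcriptome differs when both genes are disrupted. Many neuronal genes are kept low in other cells by REST, a zinc finger repressor. REST binds a DNA element called RE1 and recruits corepressors, among them RCOR1 (CoREST) with its histone deacetylases and the demethylase KDM1A. HEK293 cells are known to express a number of neuronal genes in spite of their kidney origin. In bulk RNA, fewer cells that express a gene and less of its RNA per cell cannot be told apart.

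Total gene counts were 5923328 to 6433469 in the double knockout libraries and 5634648 to 7551825 in the wild type libraries, and a count of 0 allows a level of up to 3 counts, 0.397 to 0.532 CPM (counts per 1000000 counts, on TMM-scaled library sizes). Both targeted transcripts were lower but present: FTO averaged 56.1 ± 4.21 CPM in the double knockout and 105 ± 7.83 CPM in wild type, and ALKBH5 averaged 186 ± 0.599 CPM in the double knockout and 245 ± 10.3 CPM in wild type (SD, n = 3 each). Of 14180 genes tested with edgeR's quasi-likelihood test, 57.1% had an adjusted p under 0.05 (Benjamini-Hochberg), 28.6% higher and 28.5% lower in the double knockout. Changes of at least 2-fold were rarer, with 4.63% of tested genes higher and 1.37% lower. The libraries of the groups did not overlap in 60.6% of tested genes. The common biological coefficient of variation was 2.4%, so small differences passed.

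Of the 38 genes, 25 had enough counts to be tested and 13 did not. Among the 25, 13 were higher in the double knockout (52%, against 28.6% of all tested genes), 2 were lower (8%, against 28.5%) and 10 did not pass. All 6 changes of at least 2-fold were rises: FGF13, KCNH2, INSM1, L1CAM, UCHL1 and SYN1 (6 of 25, against 4.63% of all tested genes). REST was 1.97-fold lower, just short of that size. The median log2 fold change (double knockout over wild type) was 0.26 over the tested members and 0.01 over all tested genes. The libraries of the groups did not overlap in 15 of the 25, a share near that of all tested genes. MAP2, SYN1, L1CAM, KCNH2 and INSM1 passed the filter on low counts only through their double knockout libraries, so they had to be higher there, and CRMP1 passed only through wild type. Counts and medians over tested members are therefore descriptions.

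**Figure D1:**
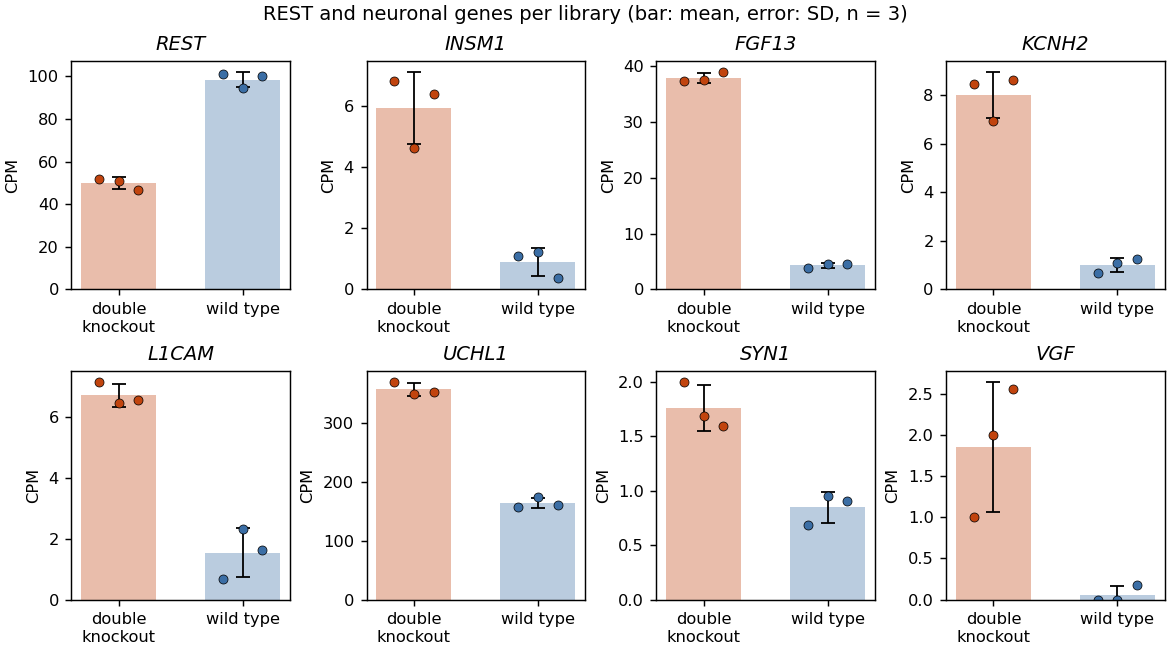
CPM per library (points) of 8 genes in double knockout and wild type, with the mean (bar) and SD (error bar, n = 3 each), each panel on its own scale from 0. REST lies between 46.7 and 52.0 CPM in double knockout and between 94.4 and 101 CPM in wild type, while the other 7 genes are higher in every double knockout library than in any wild type library; VGF had too few counts to be tested.

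REST fell in the double knockout. REST (ENSG00000084093.16, chromosome 4, 56907876 to 56966678, hg38) had 52.0, 51.1 and 46.7 CPM in the double knockout libraries, against 101, 94.4 and 100 CPM in the wild type libraries. The groups were far apart relative to the spread within them. The log2 fold change was -0.98 (SE 0.06, adjusted p = 5.33e-49, edgeR), which is 1.97-fold lower. The 30 tested genes within 5 Mb of REST had a median log2 fold change of -0.52, and REST lay 0.46 below that median. NOA1, which shares 23 exonic bases with REST on the opposite strand, also had a log2 fold change of -0.52. How much of the lower REST level belongs to its chromosome region was not tested.

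RCOR1, the CoREST scaffold of the REST complex, did not pass. Its levels were 63.3, 69.0 and 62.7 CPM in the double knockout and 69.8, 72.0 and 70.3 CPM in wild type, so that every double knockout library lay below every wild type library by a small margin. The log2 fold change was -0.12 (SE 0.06, adjusted p = 0.0744, edgeR), and the call was gained without double knockout replicate 2 (-0.17, adjusted p = 0.0267). It was also gained with scaling on the GFP, FLuc and Rluc spike-in RNAs (-0.22, adjusted p = 0.0419, edgeR), but not with GFP and FLuc alone. The scaling with Rluc was chosen after seeing the data.

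INSM1 rose in the double knockout. INSM1 (ENSG00000173404.4, chromosome 20, 20368121 to 20370949) is a zinc finger factor of developing neurons and neuroendocrine cells. It had 6.83, 4.62 and 6.40 CPM in the double knockout, against 1.10, 1.22 and 0.363 CPM in wild type. The lowest double knockout library was above the highest wild type library. The log2 fold change was 2.63 (SE 0.31, adjusted p = 2.57e-15, edgeR), and its neighbours had a median of -0.04.

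Among the 25 tested genes, the 2 of excitability rose most. FGF13 (ENSG00000129682.15, chromosome X, 138614731 to 139222777) encodes an intracellular fibroblast growth factor homologue that binds voltage-gated sodium channels and microtubules. Its levels were 37.3, 37.6 and 39.0 CPM in the double knockout and 3.85, 4.62 and 4.54 CPM in wild type. This was the largest log2 fold change among the tested members, 3.13 (SE 0.13, adjusted p = 5.44e-87, edgeR), or 8.76-fold, and its 30 tested neighbours had a median of 0.00. KCNH2 (ENSG00000055118.14, chromosome 7, 150944961 to 150978315) encodes the hERG potassium channel. It had 8.49, 6.93 and 8.64 CPM in the double knockout and 0.687, 1.09 and 1.27 CPM in wild type, without overlap. The log2 fold change was 2.99 (SE 0.28, adjusted p = 8.20e-23, edgeR), beside a neighbour median of 0.21.

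Of 3 adhesion genes, 2 rose. L1CAM (ENSG00000198910.13, chromosome X, 153861514 to 153886174), an immunoglobulin-family molecule of axon growth, had 7.16, 6.46 and 6.56 CPM in the double knockout and 0.687, 2.31 and 1.63 CPM in wild type. The wild type libraries were widely spread and stayed below the double knockout libraries. The log2 fold change was 2.11 (SE 0.27, adjusted p = 1.38e-13, edgeR) and lay between 1.72 and 2.59 when single libraries were left out. L1CAM shares 439 exonic bases (6.04% of its exons) with U52112.1 on the same strand, which held 2 summed counts in the double knockout and 5 in wild type. NCAM1, the most abundant adhesion gene of the 3, had 49.8, 56.2 and 54.4 CPM in the double knockout and 38.9, 38.6 and 46.3 CPM in wild type. Its rise was smaller, with a log2 fold change of 0.39 (SE 0.07, adjusted p = 4.52e-07, edgeR), with a neighbour median of -0.02. NRXN2, a presynaptic neurexin, averaged 5.01 ± 1.02 CPM in the double knockout and 4.30 ± 0.78 CPM in wild type (SD, n = 3 each) and did not pass (log2 fold change 0.20, adjusted p = 0.461, edgeR).

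Microtubule and growth cone genes were the largest role group, with 15 members. Of its 11 tested members 6 rose, 1 fell and 4 did not pass, and their median log2 fold change was 0.26. UCHL1 (ENSG00000154277.12, chromosome 4, 41256413 to 41268455), an abundant neuronal ubiquitin hydrolase counted here with the growth cone genes, had 370, 350 and 353 CPM in the double knockout and 158, 174 and 160 CPM in wild type. The double knockout was 2.18-fold higher without overlap, a log2 fold change of 1.12 (SE 0.04, adjusted p = 7.02e-120, edgeR). Its 31 tested neighbours had a median of 0.43, which leaves 0.69 after subtraction. UCHL1 shares 135 exonic bases with the antisense gene UCHL1-AS1, which held 11 summed counts in the double knockout and 4 in wild type.

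STMN1, a microtubule-destabilizing stathmin of proliferating cells, did not pass. It had 438, 427 and 422 CPM in the double knockout and 422, 442 and 419 CPM in wild type, with a log2 fold change of 0.00 (SE 0.03, adjusted p = 0.944, edgeR). The neuronal stathmin STMN3 had 50.3, 54.0 and 47.7 CPM in the double knockout and 34.0, 32.0 and 33.0 CPM in wild type. Every double knockout library was above every wild type library, and the log2 fold change was 0.62 (SE 0.08, adjusted p = 3.61e-14, edgeR), and its 59 neighbours had a median of 0.05.

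Of the microtubule-associated proteins MAP2, MAPT and MAP1B rose and MAP1A did not pass. MAP2, of dendrites, averaged 2.61 ± 0.275 CPM in the double knockout and 1.41 ± 0.288 CPM in wild type (log2 fold change 0.90, SE 0.35, adjusted p = 0.0193, edgeR). Its call was lost without double knockout replicate 3 (adjusted p = 0.0731), without wild type replicate 2 (adjusted p = 0.11) and with DESeq2 (adjusted p = 0.107). MAPT, the axonal tau protein, had 17.3, 19.7 and 20.6 CPM in the double knockout and 15.1, 14.4 and 14.3 CPM in wild type (log2 fold change 0.39, SE 0.12, adjusted p = 0.00181, edgeR). MAP1B, of growing axons, had 161, 179 and 156 CPM in the double knockout and 139, 139 and 138 CPM in wild type (log2 fold change 0.26, SE 0.04, adjusted p = 1.61e-08, edgeR). The groups of MAP2, MAPT and MAP1B did not overlap. MAP1A, of mature dendrites, had 4.55 ± 1.07 CPM in the double knockout and 5.88 ± 0.282 CPM in wild type and did not pass (log2 fold change -0.38, adjusted p = 0.116, edgeR), but was called lower without double knockout replicate 1 (-0.56, adjusted p = 0.043).

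The remaining tested genes of growth cones differed little. DPYSL2, a collapsin response mediator of axon growth, rose, with a log2 fold change of 0.22 (SE 0.06, adjusted p = 4.91e-04, edgeR), with 74.2 ± 2.97 CPM in the double knockout and 63.4 ± 2.18 CPM in wild type (SD, n = 3 each). GPRIN1, an inducer of neurite outgrowth, was the second member that fell. It had 50.3, 53.7 and 53.0 CPM in the double knockout and 59.9, 58.1 and 57.7 CPM in wild type, a log2 fold change of -0.16 (SE 0.07, adjusted p = 0.0252, edgeR). The 97 tested neighbours of GPRIN1 had a median of -0.32, so GPRIN1 lay 0.15 above its neighbourhood, and its call was lost without double knockout replicate 1 (adjusted p = 0.0901) and without wild type replicate 1 (adjusted p = 0.0725). GAP43, a growth cone membrane protein, and CRMP1 did not pass, with log2 fold changes of 0.32 and -0.24. The neighbours of GAP43 had a median of -0.54 and those of CRMP1 0.48.

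**Figure D2:**
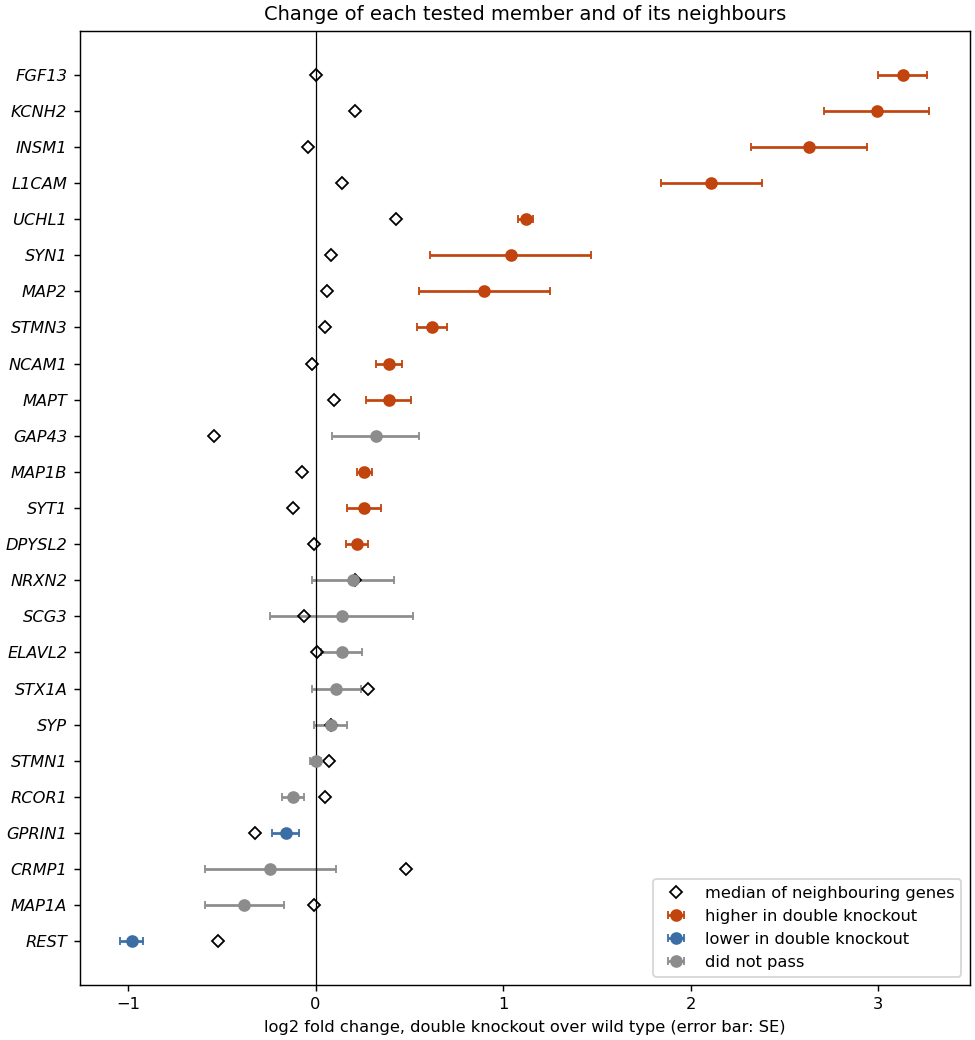
Log2 fold change (double knockout over wild type) with its SE for the 25 tested genes, ordered by size from the top, with an open diamond for the median of the tested genes within 5 Mb. FGF13 (3.13), KCNH2, INSM1 and L1CAM lie far from their diamonds, whereas REST (-0.98) lies beside a neighbour median of -0.52 and UCHL1 (1.12) beside one of 0.43.

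Changes of synaptic vesicle and fusion genes were small or uncertain. Of 7 members 4 were tested, SYN1 and SYT1 rose and SYP and STX1A did not pass. SYN1 (ENSG00000008056.13, chromosome X, 47571898 to 47619943), the phosphoprotein synapsin I that tethers vesicles, had 2.00, 1.69 and 1.60 CPM in the double knockout and 0.687, 0.95 and 0.908 CPM in wild type. The groups did not overlap, but counts were low, and the log2 fold change of 1.04 had an SE of 0.43 (adjusted p = 0.0301, edgeR). The call was lost in 5 of the 6 fits that left out 1 library, all but the fit without double knockout replicate 3, with DESeq2 (adjusted p = 0.131) and in the fit with no low-count filter (adjusted p = 0.0784). SYT1, the calcium sensor of vesicle fusion, had 29.6, 35.2 and 33.3 CPM in the double knockout and 30.1, 25.8 and 26.1 CPM in wild type. These groups overlapped, and the log2 fold change of 0.26 (SE 0.09, adjusted p = 0.00803, edgeR) was not called without double knockout replicate 2 (adjusted p = 0.0912), without wild type replicate 2 (adjusted p = 0.0782) or with DESeq2 (adjusted p = 0.0806).

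SYP, the vesicle membrane protein synaptophysin and the most abundant of these genes per length, had 35.8, 34.9 and 26.1 CPM in the double knockout and 31.9, 28.8 and 31.0 CPM in wild type. The groups overlapped (log2 fold change 0.08, SE 0.09, adjusted p = 0.448, edgeR). STX1A, a plasma membrane SNARE protein, averaged 13.9 ± 1.32 CPM in the double knockout and 12.7 ± 2.62 CPM in wild type (log2 fold change 0.11, adjusted p = 0.486, edgeR). STX1A shares 662 exonic bases (17.9% of its exons) with BUD23 on the opposite strand, so its count is uncertain where strand was not used.

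SYN1 is a textbook target of REST, and the RefSeq sequence of its promoter (GRCh38.p14) is printed here because it holds the RE1 letters without a mismatch. The motif searched spans 21 positions, of which 18 were compared: TTCAGCACC, 2 free positions, GGACAG, 1 free position, GCC, on both strands. The window runs from 250 bases before to 50 bases after the start of the gene on the minus strand (chrX:47619808-47620107), with the motif in capitals at positions -233 to -213, counted from 1 at the start with no position 0.
SYN1: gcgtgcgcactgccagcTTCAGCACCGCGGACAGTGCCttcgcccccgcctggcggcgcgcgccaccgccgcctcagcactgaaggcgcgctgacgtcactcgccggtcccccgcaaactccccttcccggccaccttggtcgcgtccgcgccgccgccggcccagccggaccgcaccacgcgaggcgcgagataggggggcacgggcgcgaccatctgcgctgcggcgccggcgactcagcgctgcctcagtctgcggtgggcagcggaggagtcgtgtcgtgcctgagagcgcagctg

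Of the neuronal RNA-binding proteins, only ELAVL2 had enough counts to be tested. ELAVL2 (HuB), which binds AU-rich mRNA, had 21.0, 22.8 and 19.0 CPM in the double knockout and 18.3, 18.6 and 20.5 CPM in wild type. The groups overlapped and the gene did not pass (log2 fold change 0.14, SE 0.11, adjusted p = 0.262, edgeR). Its paralogue ELAVL3 held 3 summed counts in the double knockout and 3 in wild type, and ELAVL4 held 4 in the double knockout and 1 in wild type.

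Granins and related secreted proteins of dense-core vesicles were near or below the testing limit. SCG3 was the only one tested and had 0.999, 2.00 and 2.08 CPM in the double knockout and 0.55, 1.63 and 2.72 CPM in wild type, with full overlap (log2 fold change 0.14, SE 0.38, adjusted p = 0.769, edgeR). VGF (ENSG00000128564.6, chromosome 7, 101162509 to 101165593), a secreted neuropeptide precursor, was below the filter but differed between the groups. Its counts were 6, 13 and 16 in the double knockout libraries and 0, 0 and 1 in the wild type libraries, 35 against 1 in all. The ratio of summed counts, scaled to library size, was 39 (95% interval 6.55 to 1580, exact, counting error only). In a fit with no low-count filter, in which 13.2% of 29387 genes were higher, VGF had a log2 fold change of 4.76 (adjusted p = 3.77e-08, edgeR), which depends on the prior count.

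The VGF promoter also holds a near match to the RE1 letters, with 1 mismatch. In its RefSeq window (chr7:101165520-101165819, minus strand, GRCh38.p14) the match covers positions -10 to 11 and reads on the strand opposite to the one printed.
VGF: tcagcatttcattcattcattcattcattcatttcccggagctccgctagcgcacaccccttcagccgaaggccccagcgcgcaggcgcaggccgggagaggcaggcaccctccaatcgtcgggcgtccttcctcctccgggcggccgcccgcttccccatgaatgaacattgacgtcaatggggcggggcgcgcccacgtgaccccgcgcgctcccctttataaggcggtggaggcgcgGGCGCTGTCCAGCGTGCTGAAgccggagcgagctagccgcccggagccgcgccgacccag

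Of the other granins, CHGB had 31 summed counts in the double knockout and 16 in wild type (ratio 2.16, 95% interval 1.14 to 4.22), CHGA had 22 in the double knockout and 19 in wild type (ratio 1.29, 0.666 to 2.52), and SCG2 had 4 in each group. CHGB was 1.5, 1.85 and 1.60 CPM in the double knockout and 1.24, 0.815 and 0.182 CPM in wild type, without overlap. In the fit without the filter CHGB did not pass (log2 fold change 1.03, adjusted p = 0.0937, edgeR).

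The remaining genes below the filter were scarce in both groups. DPYSL3, a relative of DPYSL2, had 5, 15 and 27 counts in the double knockout and 7, 8 and 5 counts in wild type. Its groups overlapped, the ratio of summed counts was 2.62 (95% interval 1.52 to 4.66), and without the filter it was called higher (log2 fold change 1.30, adjusted p = 0.00439, edgeR). SNAP25, a SNARE protein, had 6, 10 and 4 counts in the double knockout and 3, 5 and 0 counts in wild type (ratio 2.78, 1.17 to 7.3) and did not pass without the filter (adjusted p = 0.0986, edgeR). STMN2 (1 summed count in the double knockout against 2 in wild type), STMN4 (3 against 0), DCX (3 against 0), SYT4 (2 against 1) and VAMP2 (0 against 2) were at or below 3 counts in each group, and no fold change is given for them. VAMP2 shares 430 exonic bases with AC129492.3 on the same strand, so its count is uncertain.

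**Figure D3:**
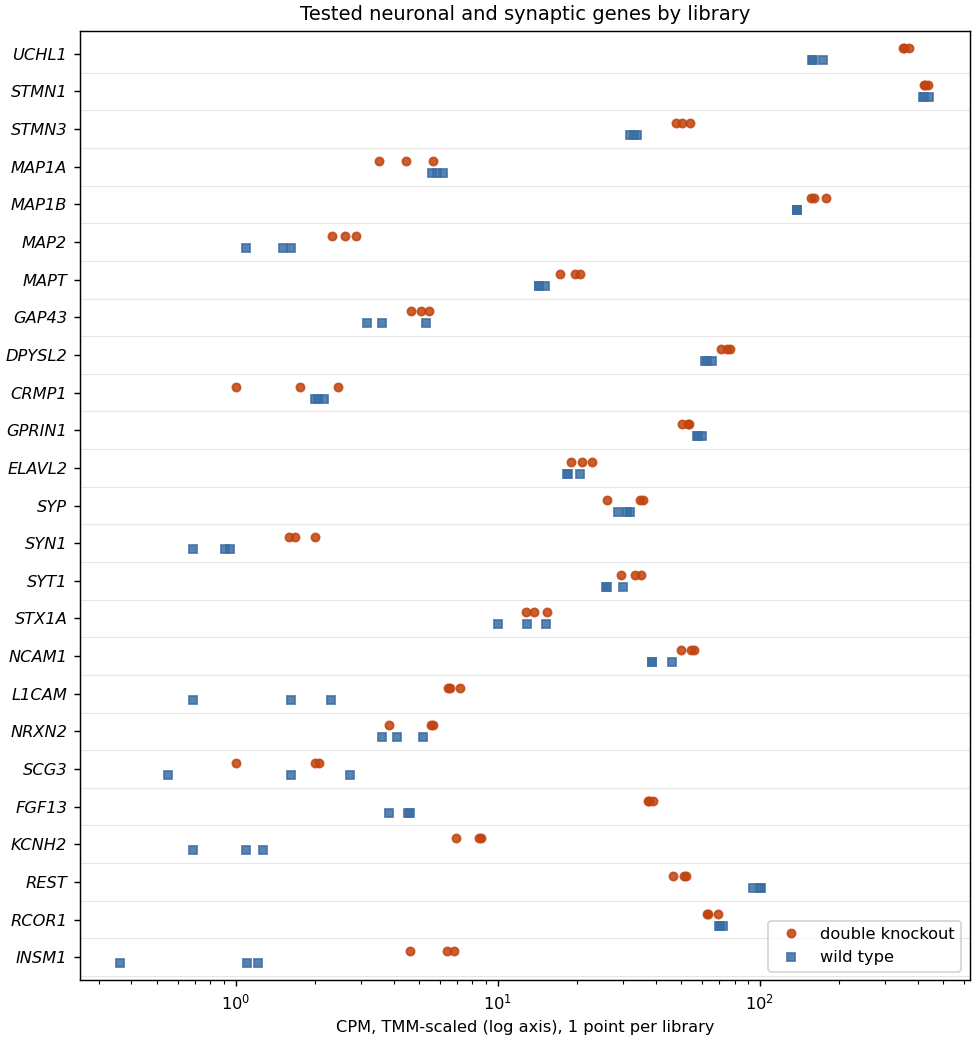
CPM of the 25 tested genes in each library on a log axis, with double knockout as circles and wild type as squares, in the order of their roles. The groups are apart for 15 genes, among them FGF13, KCNH2, L1CAM, INSM1 and REST, and overlap for genes such as SYP, SCG3 and STMN1.

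Levels per kb of exon put UCHL1 and STMN1 first. UCHL1 averaged 157 CPM per kb in the double knockout and 71.9 CPM per kb in wild type. STMN1 averaged 68.5 CPM per kb in the double knockout and 68.3 CPM per kb in wild type. In the double knockout UCHL1 (153 to 162 CPM per kb) was above STMN1 (67.4 to 69.9 CPM per kb), whereas in wild type their ranges overlapped, at 69.3 to 76.4 CPM per kb for UCHL1 and 66.9 to 70.6 CPM per kb for STMN1. A second tier held STMN3, with 16.7 CPM per kb in the double knockout and 10.9 CPM per kb in wild type, and MAP1B, with 13.1 CPM per kb in the double knockout and 11 CPM per kb in wild type. GPRIN1 averaged 12.4 CPM per kb in the double knockout and 13.9 CPM per kb in wild type, and RCOR1 averaged 10.5 CPM per kb in the double knockout and 11.4 CPM per kb in wild type. REST, at 6.25 CPM per kb in the double knockout and 12.4 CPM per kb in wild type, was below MAP1B in the double knockout and above it in wild type, with no overlap of the library ranges in either group. The strongest risers stayed at low levels, with 2.1 CPM per kb for INSM1, 1.84 CPM per kb for FGF13, 1.36 CPM per kb for KCNH2 and 0.925 CPM per kb for L1CAM in the double knockout.

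The share of tested genes that were higher depended on their level, so the members were set beside tested genes of similar wild type CPM. Under 1 CPM in wild type, 97.5% of 122 tested genes were higher and 0.00% lower, with a median log2 fold change of 2.05, because such genes pass the filter through the double knockout. The 2 members in that class, SYN1 and INSM1, had a median of 1.84, and only INSM1 (2.63) was above the median of the class. From 1 to 10 CPM, 31.5% of 3678 genes were higher and 8.65% lower (median 0.24), and of 9 tested members 4 were higher and 0 lower (median 0.32): FGF13, KCNH2, L1CAM and MAP2. KCNH2, L1CAM and MAP2 had passed the filter only through the double knockout.

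Above 10 CPM a larger share of all tested genes was lower. From 10 to 100 CPM, 29.0% of 7650 genes were higher and 30.0% lower (median -0.01), and of 11 tested members 5 were higher (STMN3, MAPT, NCAM1, SYT1 and DPYSL2) and 2 lower (REST and GPRIN1), with a median of 0.14. At 100 CPM or more, 20.5% of 2730 genes were higher and 52.2% lower (median -0.11), and of 3 tested members 2 were higher (UCHL1 and MAP1B) and 0 lower, with a median of 0.26. No test was made of these counts, since the members were chosen with results of these data known.

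**Figure D4:**
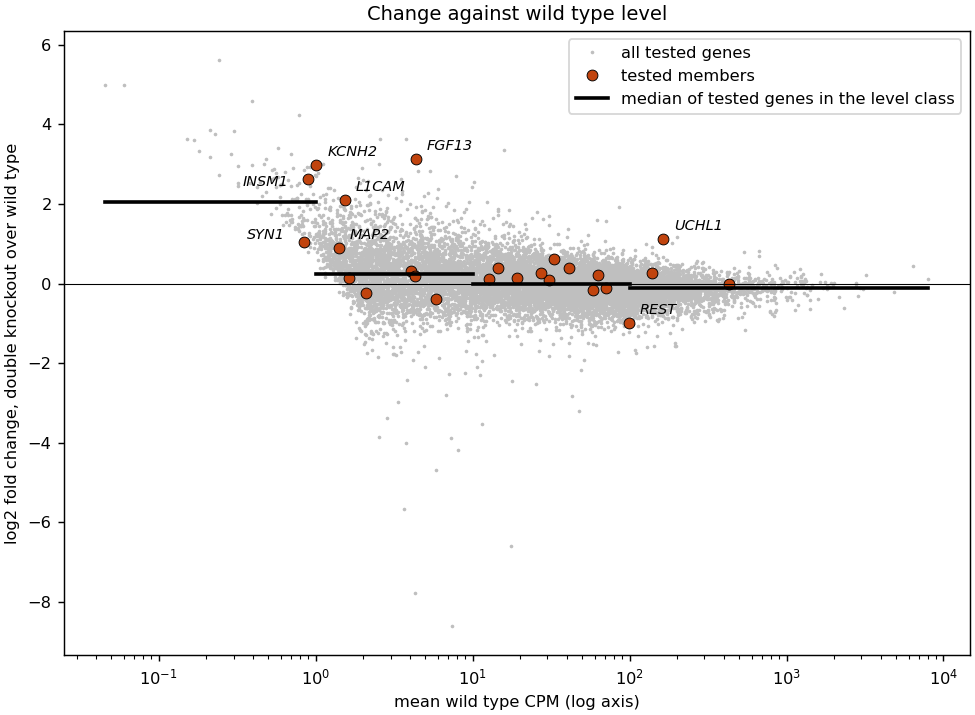
Log2 fold change (double knockout over wild type) against mean wild type CPM on a log axis for 14180 tested genes (grey) and the 25 tested members (filled circles), with the median of all tested genes in each of 4 level classes as a line. The line runs from 2.05 under 1 CPM to -0.11 at 100 CPM or more, and FGF13, KCNH2, INSM1, L1CAM and UCHL1 lie above it while REST lies below it.

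Scaling bears on the smaller rises. With library scaling on the added GFP and FLuc spike-in RNAs the median log2 fold change of all genes moved by -0.11, 15.0% of tested genes were higher (2133, with 4236 lower, against 4055 and 4038 by TMM), and 7 members were higher: UCHL1, STMN3, NCAM1, L1CAM, FGF13, KCNH2 and INSM1. The rises of MAP1B, MAP2, MAPT, DPYSL2, SYN1 and SYT1 did not pass under that scaling, with log2 fold changes of 0.12 to 0.93. DESeq2, with 21.3% of genes higher, called 10 members higher. Among genes with a mean of at least 5 CPM, 30.6% were higher, and 8 of 16 members.

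Windows of RefSeq promoters were searched for the RE1 letters for the 27 members with an entry, which have 58 windows. The 21 bases printed here show how near the members come to the motif, with letters that match it in capitals, each read on the strand of the motif and taken from GRCh38.p14. SYN1 lies on chromosome X, VGF on chromosome 7, MAP1B on chromosome 5, REST on chromosome 4, STMN3 on chromosome 20 and SYT1 on chromosome 12.
SYN1: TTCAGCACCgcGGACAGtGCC
VGF: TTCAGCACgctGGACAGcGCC
MAP1B: ccCAGCgCCgcGGAgAGtGCg
REST: gTCAGCcCCggGGcCcGgGCg
STMN3: TTCAGCgCCccctcCAGccCC
SYT1: aTCccCACagcGGACAGgGaC

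Of all 35116 promoter windows, 3 (0.00854%) matched without a mismatch, SYN1 among them, and 8 (0.0228%) matched with at most 1, which adds VGF. MAP1B, REST, STMN3 and SYT1 had 5 mismatches, a count that 4.89% of all windows reach or stay below. The left part TTCAGCACC occurs in 0.376% of windows and GGACAG in 20.5%. FGF13 and KCNH2, the tested members that rose most, had at best 7 and 6 mismatches, and VGF, which was below the filter, had 1. These windows cover only the bases next to the start, and a missing match says nothing of REST binding elsewhere.

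Related neural genes outside the 38 moved in both directions, and changes of at least 2-fold were more often rises. Of 284 genes in 9 lists of related function, 201 were tested, 70 were higher (34.8%) and 62 lower (30.8%), against 28.6% and 28.5% of all tested genes. Their median log2 fold change was 0.04. Of the 201, 26 were higher by at least 2-fold and 6 lower, against 4.63% and 1.37% of all tested genes.

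Axon growth, neuronal cytoskeleton and transport genes had the most rises, 14 of 26 tested, with 7 falls (median 0.29). KIF1A, the kinesin of synaptic vesicle precursors, averaged 160 ± 2.45 CPM in the double knockout and 15.9 ± 2.15 CPM in wild type (SD, n = 3 each), a log2 fold change of 3.35 (SE 0.07, adjusted p = 1.52e-206, edgeR) beside a neighbour median of 0.11. On the log2 scale MAP4 fell by 0.83 and GPRIN3 by 1.27, with neighbour medians of -0.38 and -0.43. Neuropeptide processing genes had 5 rises and 2 falls among 9 tested (median 0.34). The neuronal pentraxins NPTX1 and NPTX2 rose by 2.55 and 1.00 on the log2 scale, and CPE, the carboxypeptidase of prohormones, fell by 0.43 in a neighbourhood with a median of -0.64.

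Voltage-gated channels and their partners had 11 rises and 8 falls among 25 tested (median 0.17). On the log2 scale the sodium channel SCN9A rose by 1.88 and the calcium channel CACNA1B by 1.04, the second beside a neighbour median of 0.47. The synaptic vesicle list was balanced, with 10 rises and 10 falls among 32 tested (median 0.01). In it, on the log2 scale, the active zone scaffolds RIMS1 and RIMS2 rose by 1.82 and 1.52. The postsynaptic list had 5 rises, 5 falls and 15 genes that did not pass (median 0.01). The scaffold SHANK2 averaged 3.64 ± 0.476 CPM in the double knockout and 0.576 ± 0.319 CPM in wild type (log2 fold change 2.69). SHANK2 passed the filter on low counts only through its double knockout libraries, so it had to be higher there. On the log2 scale CHRNA5 fell by 0.56, and NLGN1 fell by 0.62 in a neighbourhood with a median of -0.69.

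Adhesion and guidance genes had 8 rises and 10 falls among 27 tested (median -0.11). Of all tested genes, 28.6% were higher and 28.5% lower. On the log2 scale the guidance receptors ROBO1 and UNC5C fell by 1.5 and 1.49, with neighbour medians of -1.01 and -0.48, and PLXNA2 rose by 2.56. REST cofactors had 5 rises and 10 falls among 23 tested (median -0.12). All but RCOR2 and SMARCE1 were above 10 CPM in wild type. Of all tested genes, 30.0% at 10 to 100 CPM and 52.2% at 100 CPM or more were lower, so falls were common at these levels. The deacetylase HDAC2, on the same log2 scale, fell by 0.66 beside a neighbour median of -0.36, the phosphatase CTDSP1 rose by 0.55, and CTBP1 rose by 0.49, as much as its neighbours (0.49). Of the neuronal transcription factors 6 rose and 5 fell among 20 tested (median 0.06), with LHX2 and HES6 at log2 fold changes of 1.61 and 1.06 and ONECUT2 at -1.19. The RNA-binding proteins had 6 rises and 5 falls among 14 tested (median 0.15), and RBFOX2, PTBP2 and MSI2 fell by 0.36, 0.60 and 0.43 on the log2 scale. Each of these named changes had an adjusted p below the threshold in the edgeR fit, and the spread of the lists is drawn in the bar plot of their calls.

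**Figure D5:**
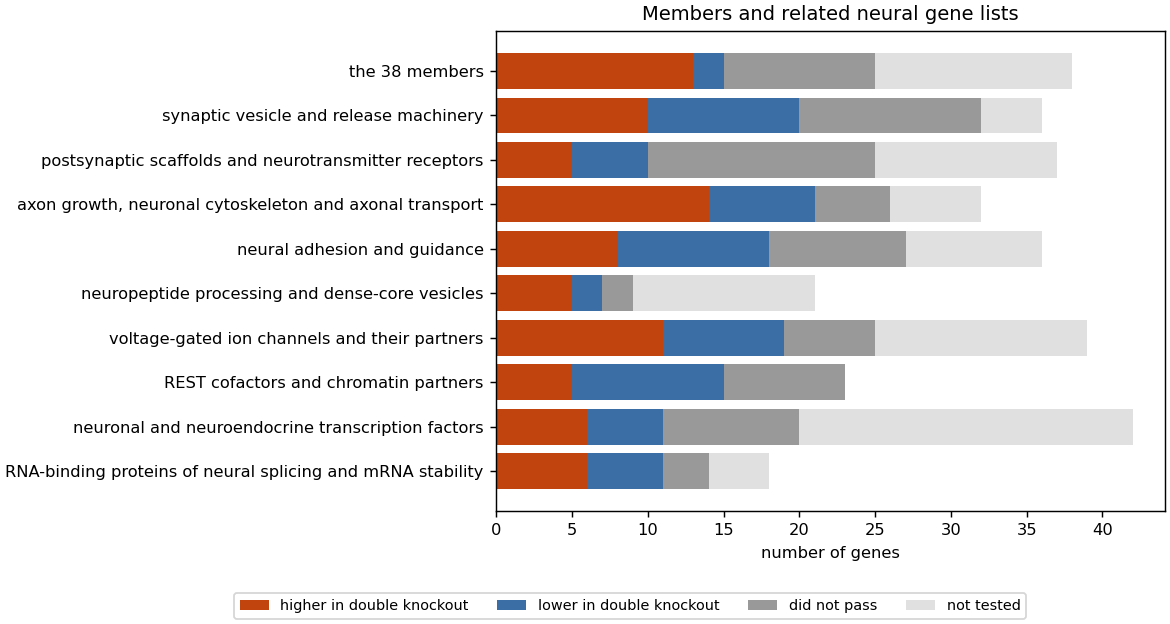
Number of genes higher, lower, not passing and not tested in the double knockout against wild type, for the 38 members (top bar) and 9 related neural lists. The members have 13 rises and 2 falls, the synaptic vesicle list has 10 of each and the REST cofactor list 5 rises and 10 falls. The lists differ in wild type level, on which the shares of all tested genes higher and lower depended.

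Most of the markers listed for mature neurons were at or near 0. Of 13 mature neuron markers 5 were tested, with a median log2 fold change of -0.11. ENO2 (log2 fold change 2.03, adjusted p = 2.03e-47, edgeR) and GAD1 (1.54, adjusted p = 9.11e-23) rose. RBFOX3 (-0.54, adjusted p = 0.0501), SLC17A7 (-0.33) and NRGN (-0.11) did not pass. The summed level of the 13 markers was 74.4 to 83.6 CPM in the double knockout and 47.2 to 49.9 CPM in wild type. Its rise came from ENO2 (28.8 CPM in the double knockout, 7.00 CPM in wild type) and GAD1 (18.3 CPM in the double knockout, 6.34 CPM in wild type). The largest part of the wild type sum was NRGN, at 24.9 CPM in the double knockout and 26.8 CPM in wild type. NEUROD6 had no count in any library, and SLC17A6, SLC32A1 and TUBB3 had at most 1 summed count in each group. TUBB3 shares 1584 exonic bases (35.8%) with AC092143.1 on the same strand, so its count is uncertain.

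Lists of other cell types were mixed. Glial markers had 1 rise and 1 fall among 3 tested of 15, at 77.6 to 84.8 CPM in the double knockout and 100 to 106 CPM in wild type, with SOX10 and FABP7 at 0. The lower sum came from 1 gene, SLC1A3, at 33.4 ± 0.275 CPM in the double knockout and 66.2 ± 3.86 CPM in wild type. On the log2 scale SLC1A3 fell by 0.99 and OLIG2 rose by 0.64, and PMP22 did not pass. Chromaffin and sympathetic markers had 2 rises among 5 tested of 14, at 61.6 to 62.0 CPM in the double knockout and 59.0 to 63.2 CPM in wild type, with TH among 7 at 0. Kidney tubule and nephron markers, of the labelled tissue of origin, had 7 rises and 2 falls among 11 tested of 22, at 331 to 338 CPM in the double knockout and 246 to 263 CPM in wild type. Of these PAX2 rose by 0.99 and LHX1 by 1.07 on the log2 scale, and PAX8 and CDH16 had no count. Fibroblast markers had 0 rises and 3 falls among 4 tested of 12, at 96.9 to 103 CPM in the double knockout and 96.8 to 107 CPM in wild type. Most of that sum was FBLN1, which did not pass, at 87.9 ± 1.63 CPM in the double knockout and 81.9 ± 7.23 CPM in wild type. LUM fell by 3.86 and COL3A1 by 2.41 on the log2 scale. Both passed the filter on low counts only through wild type, so they had to be lower in the double knockout. LUM held 3 summed counts in the double knockout and 52 in wild type. None of 2 tested haematopoietic markers of 14 passed. The part of these markers in the results above was not tested.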

How the data were processed

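Cytoplasmic RNA of 6 libraries, 3 double knockout and 3 wild type, was sequenced after rRNA depletion, per the labels' protocols, with 7 pg of GFP and 1.2 pg of FLuc spike-in RNA added to 1 µg of each sample. Per the submitters' processing notes, cutadapt 2.10, STAR 2.7.6a, featureCounts and hg38 were used. The sources used here do not state the strand setting or the featureCounts version. The authors deposited raw read counts per gene, with 58721 gene rows and 4 rows for spike-in RNAs, which stayed out of library sizes. Wild type columns were mapped as the remaining genotype, by replicate number.

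Counts were analysed in R 4.3.3 with edgeR 4.0.16: filterByExpr (minimum count 10, minimum total 15), TMM, glmQLFit in robust mode and two-sided glmQLFTest, adjusted by Benjamini and Hochberg over 14180 genes at 0.05. The procedure was tested on simulated data. Positive log2 fold changes mean higher in the double knockout. Neighbours are tested genes with a midpoint within 5 Mb. Alternatives used limma 3.58.1 and DESeq2 1.42.0, other filters and scalings, and libraries left out in turn. Replicates are independent biological replicates per the labels. Residuals of libraries with the same number correlated at 0.0106, 0.0166 and 0.0085, so the numbers do not pair them. The chi-square of 2 libraries over its degrees of freedom was 1.11 to 1.41 within groups and 11.8 to 13.9 between them.

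The members and all lists were chosen with earlier results of these data known. Per-library values are given for members that changed at least 2-fold, for REST, RCOR1 and INSM1, and for the most abundant member of each role, with others added where useful. Of each related list the 3 genes with the smallest p were named, except a few that are not reported here. Intervals and floors cover counting error only.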

Additional observations from a re-analysis of the deposited data

Results flagged for a closer look

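VGF and CHGB, both proteins of dense-core secretory vesicles, were below the filter on low counts and so outside the tested genes, yet every double knockout library held more than 3 counts and lay above every wild type library in CPM. VGF had 35 summed counts in the double knockout and 1 in wild type. CHGB had 31 summed counts in the double knockout and 16 in wild type. The 3 counts that a count of 0 allows were exceeded in each double knockout library, and with no filter VGF passed (adjusted p = 3.77e-08, edgeR) whereas CHGB did not (adjusted p = 0.0937).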

How the results depend on the processing

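Of 13 members higher and 2 lower, limma voom, robust mode off, relative log expression scaling and the replicate block gave 13 and 2 again. Leaving out single libraries gave 11 to 15 higher and 1 to 3 lower. The counts moved with spike-in scaling (7 higher, and 7 with the Rluc row added, an alternative chosen after seeing the data), with a mean of at least 5 CPM (8 higher, 16 tested), and with library totals or DESeq2 (1 lower each, GPRIN1 lost). Over all genes, 4055 higher became 2133 with spike-in scaling and 2406 with Rluc, as the median log2 fold change moved by -0.11 and -0.09. Over single libraries left out, 3636 to 3827 genes were higher and 3772 to 3915 lower. GPRIN1 turned to 0.15 after its neighbours were subtracted. Classed by the mean CPM of both groups, 29.5% of genes at 1 to 10 CPM were higher and 10.5% lower, 25.1% and 46.9% at 100 CPM or more, and no tested gene was under 1. Low counts limit SYN1, MAP2 and the 13 untested members: the cause of their lost calls was not tested. The wild type line and the number of clones limit all comparisons.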
